A study of Mus musculus with 12 samples.

Results

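Collagens are the most abundant proteins of connective tissue. The transcripts described here come from all mouse genes whose symbol reads Col, a number, the letter a and a number, which takes in every collagen alpha chain that the array names in that way. The rule found 44 genes among the 16244 genes with a probe set of 1 symbol, and it reads gene names, not signals. They fall into 11 chains of fibril-forming (fibrillar) collagens, 6 chains of type IV collagen, the network of basement membranes, and 27 chains of other types. Where a gene had several probe sets, the one with the strongest average signal was read, and all 44 reached a mean log2 signal of 6 in at least 1 group, so all 44 were among the 15900 genes tested.

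Collagen chains wind into triple helices of 3 chains, and a helix assembles from the chains that a cell makes together. Types I and III give fibrous tissue such as the adrenal capsule its tensile strength, types V and XI set the width of fibrils, and type VI forms beaded filaments around cells. Type IV collagen lines sinusoidal endothelium and surrounds the cords of cortical and chromaffin cells, where it lies together with laminin, nidogen and perlecan. Types IX, XII and XIV sit on fibril surfaces, types XV and XVIII join basement membranes to the tissue below, and types XIII, XVII, XXIII and XXV are anchored in cell membranes.

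The tissue was the whole adrenal gland of male C57Bl/6J mice aged 21 weeks, so capsule, stroma, cortex and medulla were measured together. CON mice drank plain water. ASP mice received aspartame in the drinking water, first through the dam and then for life, with an estimated mean intake of about 46 mg/kg. CGP mice were exposed through the dam to the NMDA receptor antagonist CGP 39551 at 5 mg/kg from conception to weaning at postnatal day 28, and ASP+CGP mice received both. RNA from all the male mice of a group was mixed into 1 pool, and 3 arrays (Affymetrix Mouse Gene 1.0 ST) were hybridised from each pool, which gave 12 arrays in 4 groups. The arrays of a group are therefore repeat measurements of 1 pool, and every p-value below measures the spread between arrays, not the spread between mice. No second pool of any group was analysed here.

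The pools differed across the whole genome, and these differences stand beside every collagen value. Arrays of 1 pool correlated at 0.989 to 0.995. Arrays of CON correlated with those of CGP at 0.990 to 0.993, with those of ASP+CGP at 0.960 to 0.978 and with those of ASP at 0.926 to 0.934. The interquartile range of log2 signal was 2.20 to 2.29 on the ASP+CGP arrays and 2.52 to 2.69 on all others. Adrenal cortex markers were strong in every pool, with a mean log2 signal over 9 genes of 12.79 to 12.80 in CON, 12.70 to 12.76 in CGP, 12.49 to 12.55 in ASP and 12.63 to 12.68 in ASP+CGP. The ASP pool also carried transcripts of neural cell types: the mean log2 signal over 10 neuron genes was 10.60 to 10.69 there, against 7.82 to 7.93 in CON, 7.88 to 7.90 in CGP and 7.88 to 7.94 in ASP+CGP, and all 10 rose by limma. Oligodendrocyte genes ran from 9.05 to 9.23 in ASP and from 6.50 to 6.80 elsewhere, with 9 of 9 called, and 8 of 9 astrocyte genes were called. Hepatocyte genes differed too, with a mean of 10.94 to 11 in CON, 11.66 to 11.75 in CGP, 9.98 to 10.03 in ASP and 9.52 to 9.67 in ASP+CGP. The part of such cells in the collagen differences was not tested.

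A gene was called when its adjusted p in limma was below 0.05 and its fold was at least 1.4. With aspartame alone 4 of the 44 collagens were called lower and 1 higher. Col4a1, Col4a2, Col18a1 and Col1a2 fell and Col25a1 rose in ASP compared to CON, while 8.13% of all tested genes were called lower and 9.81% higher in that comparison. With CGP 39551 alone none was called. With both, 5 collagens were called higher and 1 lower compared to CON, with 6.09% of all genes called higher and 8.32% lower. The share of collagens called was thus 11.4% in ASP and 13.6% in ASP+CGP, against 17.9% and 14.4% of all tested genes, so the calls alone do not set the family apart. In whole tissue, fewer cells of a type and less RNA per cell cannot be told apart.

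**Figure D1:**
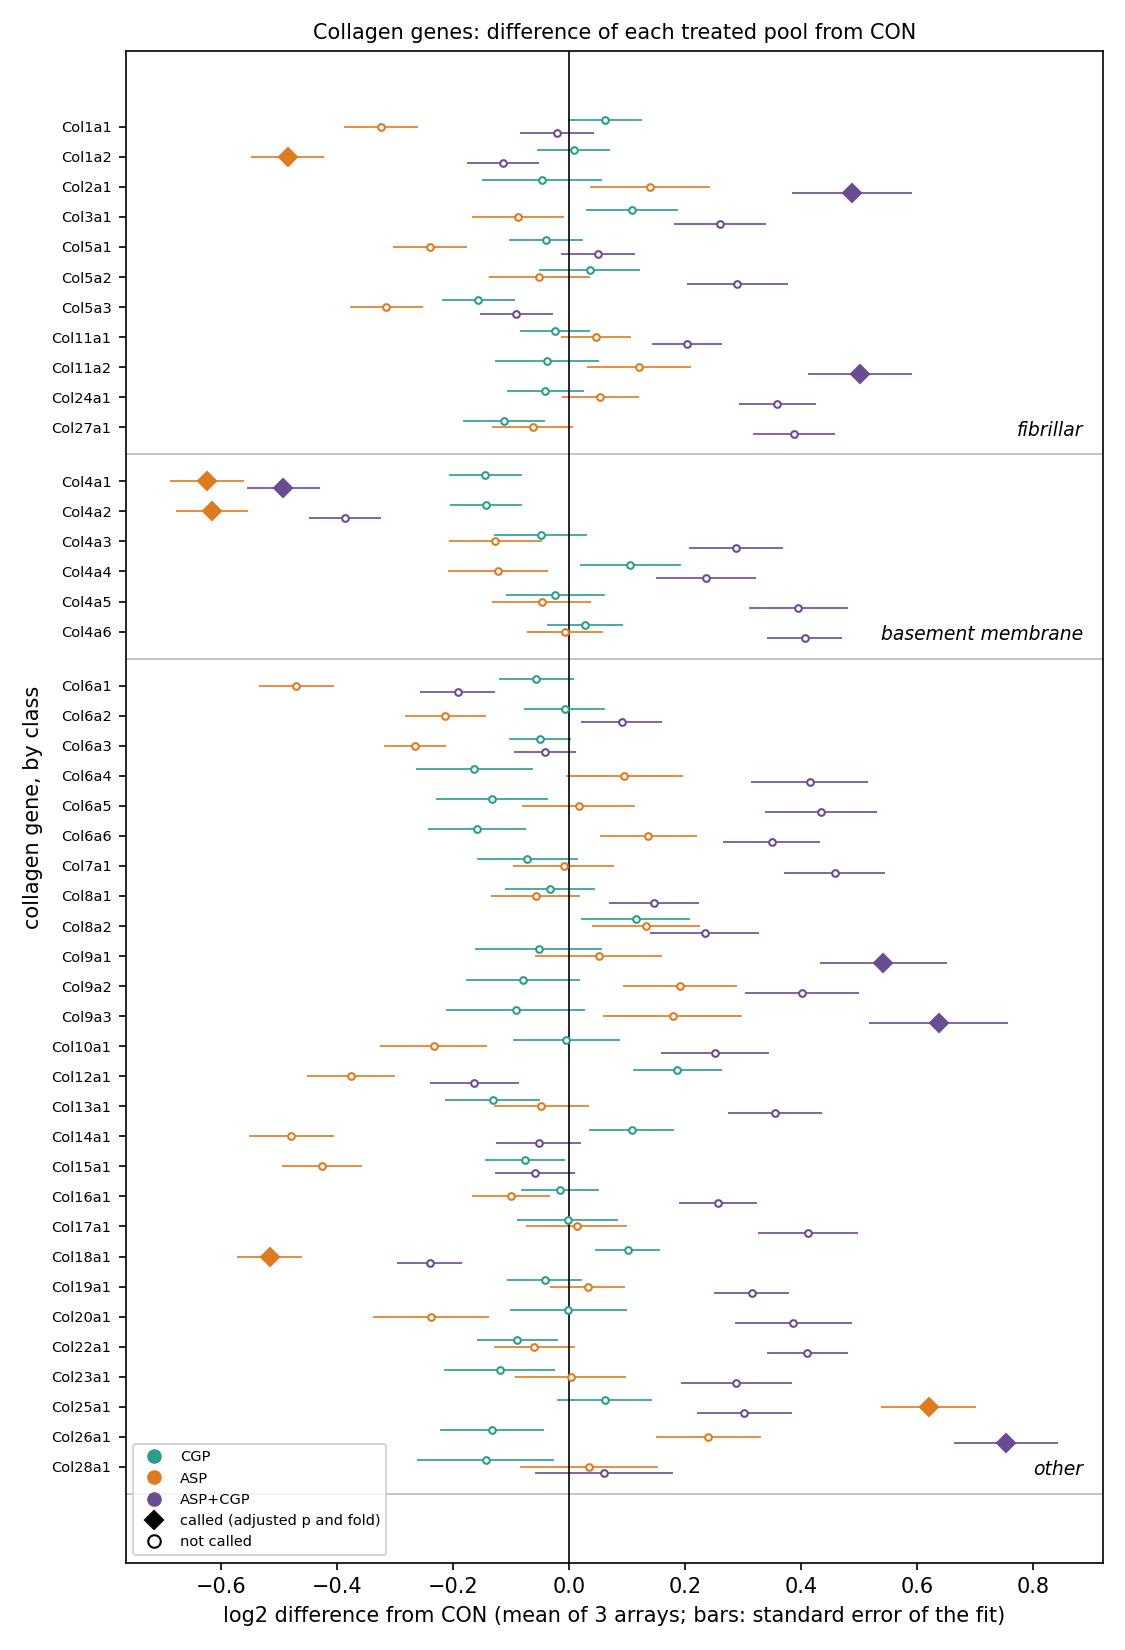
Log2 difference from CON of each of the 44 collagen genes (one line per gene, grouped as fibrillar, basement membrane and other) in the CGP, ASP and ASP+CGP pools, as the mean of 3 arrays with the standard error of the limma fit; filled diamonds were called. The ASP+CGP points lie mostly to the right of 0 (33 of 44 genes) and the CGP points lie between -0.16 and 0.19.

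The type IV chains fell into separate sets by their differences. Type IV collagen is built as a helix of alpha 1 and alpha 2 chains in nearly all basement membranes, and as helices of alpha 3 to alpha 6 chains in specialised ones such as that of the kidney glomerulus. The log2 signal of Col4a1 was 9.70, 9.82 and 9.82 in CON, 9.57, 9.70 and 9.63 in CGP, 9.04, 9.20 and 9.22 in ASP, and 9.26, 9.30 and 9.30 in ASP+CGP. All ASP and all ASP+CGP arrays were below every CON array. Col4a1 fell by 0.62 ± 0.06 (log2 difference ± SE, n = 3 arrays against 3) in ASP, to 0.649 times the CON signal (adjusted p = 1.14e-06, limma), and by 0.49 ± 0.06 in ASP+CGP, to 0.710 times (adjusted p = 2.72e-05, limma).

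Its partner Col4a2 behaved alike. Its log2 signal was 9.19, 9.26 and 9.26 in CON, 9.10, 9.12 and 9.07 in CGP, 8.59, 8.65 and 8.63 in ASP, and 8.87, 8.96 and 8.73 in ASP+CGP. The 4 pools kept the order CON, CGP, ASP+CGP, ASP with no overlap between arrays. In ASP the fall was 0.62 ± 0.06, to 0.652 times CON (adjusted p = 9.23e-07, limma). In ASP+CGP the difference was -0.39 ± 0.06, with an adjusted p of 0.000110 by limma but a ratio of 0.765, which is short of the fold required.

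Col4a1 and Col4a2 lie head to head, and their start sites are close enough for the 5′ ends to overlap. In RefSeq on GRCm38.p6, Col4a1 starts at chr8:11312826 on the minus strand and Col4a2 at chr8:11312805 on the plus strand, so that 22 bases are transcribed from both. No other pair among the 35 collagen genes with a promoter sequence had overlapping windows of 250 bases before to 50 after the start; the windows of Col4a5 and Col4a6, which also form a pair, were 842 bases apart. The stretch around the starts is shown because these were the chains that fell together. It covers chr8:11312797-11312834 on the plus strand, from 5′ to 3′, and holds the first 30 transcribed bases of each gene, with the 22 shared bases in the middle, Col4a1 alone to their left and Col4a2 alone to their right, and with the letters GGGCGG, the core of a GC box, in capitals.

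Col4a1 and Col4a2: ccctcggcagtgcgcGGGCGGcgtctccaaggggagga

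The other 4 type IV chains were nearer to CON in ASP. Their differences there lay between -0.13 and -0.01, none called. The ASP arrays of Col4a3 and Col4a4 were below every CON array, by gaps of 0.02 and 0.03, which held for 43.0% of all genes at any gap. In ASP+CGP the 4 differences lay between 0.24 and 0.41, with all 4 passing the adjusted p and none the fold. The ASP+CGP arrays of Col4a4 overlapped those of CON. Col4a6 had 6.38, 6.40 and 6.33 in CON, 6.28, 6.32 and 6.49 in ASP, and 6.86, 6.70 and 6.76 in ASP+CGP, where each array was above all CON and ASP arrays. Col4a5 stood at 6.80, 6.68 and 6.51 in CON, and at 7.21, 6.87 and 7.09 in ASP+CGP, a difference of 0.39 ± 0.09. So within 1 collagen type, the means of the alpha 1 and alpha 2 chains were below CON in the ASP+CGP pool. Those of the alpha 3 to alpha 6 chains were above it there. The sets also differ in brightness: CON means were 9.78 and 9.24 for Col4a1 and Col4a2, and 6.37 to 7.37 for the others. In that pool all genes with a CON signal of 9 to 10 had a median of -0.34. At 7 to 8 it was -0.06, and at 6 to 7 0.25. After cyclic loess normalization, which evens out differences between arrays along the range of signal, Col4a1 was at -0.17 and Col4a2 at -0.09. The others were then at 0.19 to 0.27. The part of signal level was not tested.

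Of the 3 collagens that link basement membranes to stroma, 1 was called in ASP. Col18a1, whose C-terminal fragment is endostatin, had log2 signals of 8.54, 8.64 and 8.65 in CON, 8.66, 8.74 and 8.72 in CGP, 8.02, 8.14 and 8.11 in ASP, and 8.36, 8.39 and 8.35 in ASP+CGP. It was lowest on the 3 ASP arrays and between ASP and CON on the ASP+CGP arrays. The fall in ASP was 0.52 ± 0.06, to 0.699 times CON (adjusted p = 2.19e-06, limma), and the call was lost without ASP replicate 1. For the related Col15a1 the difference was -0.43 ± 0.07 in ASP and -0.06 ± 0.07 in ASP+CGP, and neither was called. Col7a1, which forms anchoring fibrils, was at -0.01 ± 0.09 in ASP, with arrays that overlapped those of CON.

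The partners of type IV collagen were lower in ASP too. Of 15 basement membrane genes tested (laminin chains, nidogens, perlecan and others), 8 fell and none rose, with a median difference of -0.51. In that comparison 8.13% of all tested genes were called lower. Hspg2, which encodes perlecan, fell to 0.621 times CON, Lama5 to 0.627 times, Nid1 to 0.643 times and Lamb1 to 0.648 times. Lama1, Lama2, Lamc3 and Nid2 were the others called. In ASP+CGP, Lamb1 and Lamc1 alone fell, to 0.713 and 0.704 times CON, and the median was -0.32. There 8.32% of all tested genes were called lower. Endothelial markers were lower too: 8 of 11 fell and none rose in ASP (Tek, Kdr, Robo4 and Tie1 among them, median -0.55). In ASP+CGP 3 of 11 fell, and mean log2 signals were 10.19 to 10.24 in CON, 9.66 to 9.73 in ASP and 9.77 to 9.91 in ASP+CGP. Lists of other adrenal cells were lower in ASP as well. Medians were -0.38 for chromaffin, -0.38 for macrophage and -0.23 for adrenal cortex genes, with 2, 3 and 3 of 9 called lower. None of these was called higher, while 2 of 6 Schwann genes rose. After cyclic loess the endothelial calls were 1 of 11 (Tek) in ASP and 0 in ASP+CGP, and with arrays centred on their medians 6 and 1. The Lamb1 and Lamc1 calls in ASP+CGP were lost under both. The part of endothelial cell number in the type IV values was not tested.

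Fibrillar collagens were split in ASP as well. Col1a2, the alpha 2 chain of type I collagen, had 9.05, 9.14 and 9.13 in CON, 9.03, 9.21 and 9.10 in CGP, 8.59, 8.66 and 8.62 in ASP, and 9.05, 9.03 and 8.90 in ASP+CGP. The ASP arrays were below all 9 others. The fall was 0.49 ± 0.06 (adjusted p = 1.27e-05, limma), and its ratio of 0.714 is at the fold required, so that leaving out CON replicate 2, CON replicate 3, ASP replicate 1 or ASP replicate 3 ended the call.

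Col1a1, the other chain of type I, did not reach the fold. It had 9.17, 9.35 and 9.23 in CON, 9.26, 9.36 and 9.33 in CGP, 8.90, 8.89 and 9.0 in ASP, and 9.31, 9.17 and 9.21 in ASP+CGP. The ASP arrays were again below all others, and the difference from CON was -0.32 ± 0.06 (adjusted p = 0.000562, limma; ratio 0.799). In ASP+CGP the type I chains were at -0.02 and -0.11 from CON. Col3a1, which forms fibrils together with type I, showed another course: 7.78, 7.87 and 7.84 in CON, 7.68, 7.61 and 7.95 in ASP, and 8.14, 8.11 and 8.03 in ASP+CGP. Its ASP and CON arrays overlapped, and its ASP+CGP arrays were above both.

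The sequence before the start of Col1a2 is shown because it is the fibrillar gene called lower in ASP. It is the 250 bases at chr6:4505368-4505617 on the plus strand (RefSeq, GRCm38.p6), with capitals for GGGCGG and for CCAAT, searched on both strands together with TATAAA.

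Col1a2: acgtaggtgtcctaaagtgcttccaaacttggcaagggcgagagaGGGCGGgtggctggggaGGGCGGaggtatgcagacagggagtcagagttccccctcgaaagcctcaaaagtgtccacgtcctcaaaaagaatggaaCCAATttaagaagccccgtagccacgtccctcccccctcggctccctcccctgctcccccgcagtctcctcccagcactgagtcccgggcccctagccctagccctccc

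The minor fibrillar chains that set fibril width were nearer to CON in ASP. The type V chains differed by -0.32 to -0.05, with Col5a1 at -0.24 ± 0.06 and Col5a3 at -0.32 ± 0.06, and none was called. Type II and XI chains, best known from cartilage, stood slightly above CON in ASP, at 0.05 to 0.14, with none called. By median, the 11 fibrillar collagens were at -0.06, the 6 basement membrane collagens at -0.13 and the 27 others at -0.01 in ASP, against -0.10 for all tested genes.

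By the probe sets used, type VI collagen divided like type IV, and here too the chains differed in signal. The classical helix of alpha 1, alpha 2 and alpha 3 chains was lower in ASP, by log2 differences of -0.47 to -0.21, and none of these passed the fold. Col6a1 had 9.90, 9.95 and 9.85 in CON, 9.89, 9.74 and 9.90 in CGP, 9.42, 9.46 and 9.41 in ASP, and 9.76, 9.77 and 9.60 in ASP+CGP. Its ASP arrays were below all others, at -0.47 ± 0.06 from CON (adjusted p = 2.27e-05, limma; ratio 0.722), and it was called without CON replicate 3 or without ASP replicate 2.

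The other classical chains were closer to CON. Col6a2 had 8.36, 8.31 and 8.26 in CON, 8.34, 8.23 and 8.33 in CGP, 8.0, 8.03 and 8.26 in ASP, and 8.45, 8.39 and 8.36 in ASP+CGP. Col6a3 had 7.89, 7.86 and 7.86 in CON, 7.85, 7.85 and 7.75 in CGP, 7.61, 7.65 and 7.56 in ASP, and 7.82, 7.83 and 7.84 in ASP+CGP. The ASP arrays of both were below those of CON, for Col6a2 by less than the rounding of these values at its nearest arrays. The alpha 4, alpha 5 and alpha 6 chains, which can take the place of alpha 3, were at 0.02 to 0.14 in ASP and at 0.35 to 0.43 in ASP+CGP, none called. CON means were 9.90, 8.31 and 7.87 for alpha 1 to alpha 3, and 6.51, 7.10 and 7.84 for alpha 4 to alpha 6. After cyclic loess the classical chains were at -0.30 to -0.06 in ASP and the others at 0.10 to 0.27. In ASP+CGP the 2 sets were then at 0.04 to 0.28 and at 0.27 to 0.46. The part of signal level was not tested. Col6a5 and Col6a6 each have a second probe set of lower signal. In ASP it gave -0.26 and -0.19 where the one used gave 0.02 and 0.14. In ASP+CGP it gave -0.03 and 0.11 where the one used gave 0.43 and 0.35. The probe sets thus disagree, and for these chains the division in ASP depends on the probe set read.

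The collagen that rose in ASP is the one best known from neurons. Col25a1 encodes a membrane collagen that is shed from nerve cells and needed by motor axons. Its log2 signal was 6.89, 7.05 and 6.98 in CON, 7.06, 6.88 and 7.17 in CGP, 7.49, 7.68 and 7.62 in ASP, and 7.30, 7.17 and 7.36 in ASP+CGP. It was highest on the 3 ASP arrays, 1.54-fold above CON (log2 difference 0.62 ± 0.08, adjusted p = 1.56e-05, limma). It was the only collagen lower in ASP+CGP than in ASP, at -0.32 ± 0.08. In ASP+CGP it was 0.30 ± 0.08 above CON and was not called, with every array above every CON array. The neuron genes described above were highest in the ASP pool. In ASP+CGP their mean was 7.88 to 7.94, beside 7.82 to 7.93 in CON. The part of neuron genes in the Col25a1 values was not tested.

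The 250 bases before the Col25a1 start are shown as those of the collagen called higher in ASP. They are chr3:130180595-130180844 on the plus strand (RefSeq, GRCm38.p6), with the same motifs in capitals; CCGCCC is GGGCGG read from the other strand.

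Col25a1: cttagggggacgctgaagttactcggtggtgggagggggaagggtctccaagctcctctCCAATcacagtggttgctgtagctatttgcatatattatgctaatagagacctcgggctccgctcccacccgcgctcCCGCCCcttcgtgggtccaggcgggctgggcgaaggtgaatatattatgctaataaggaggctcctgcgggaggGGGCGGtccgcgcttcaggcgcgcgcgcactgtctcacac

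The 3 motifs were counted in all windows of that table, 250 bases before to 50 after a start. GGGCGG was in 60.5% of the 38 windows of 35 collagen genes and in 35.7% of all 32851 windows. CCAAT was in 34.2% and 37.4%, and TATAAA in 13.2% and 13.6%. These shares are descriptions of letters and were not tested.

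**Figure D2:**
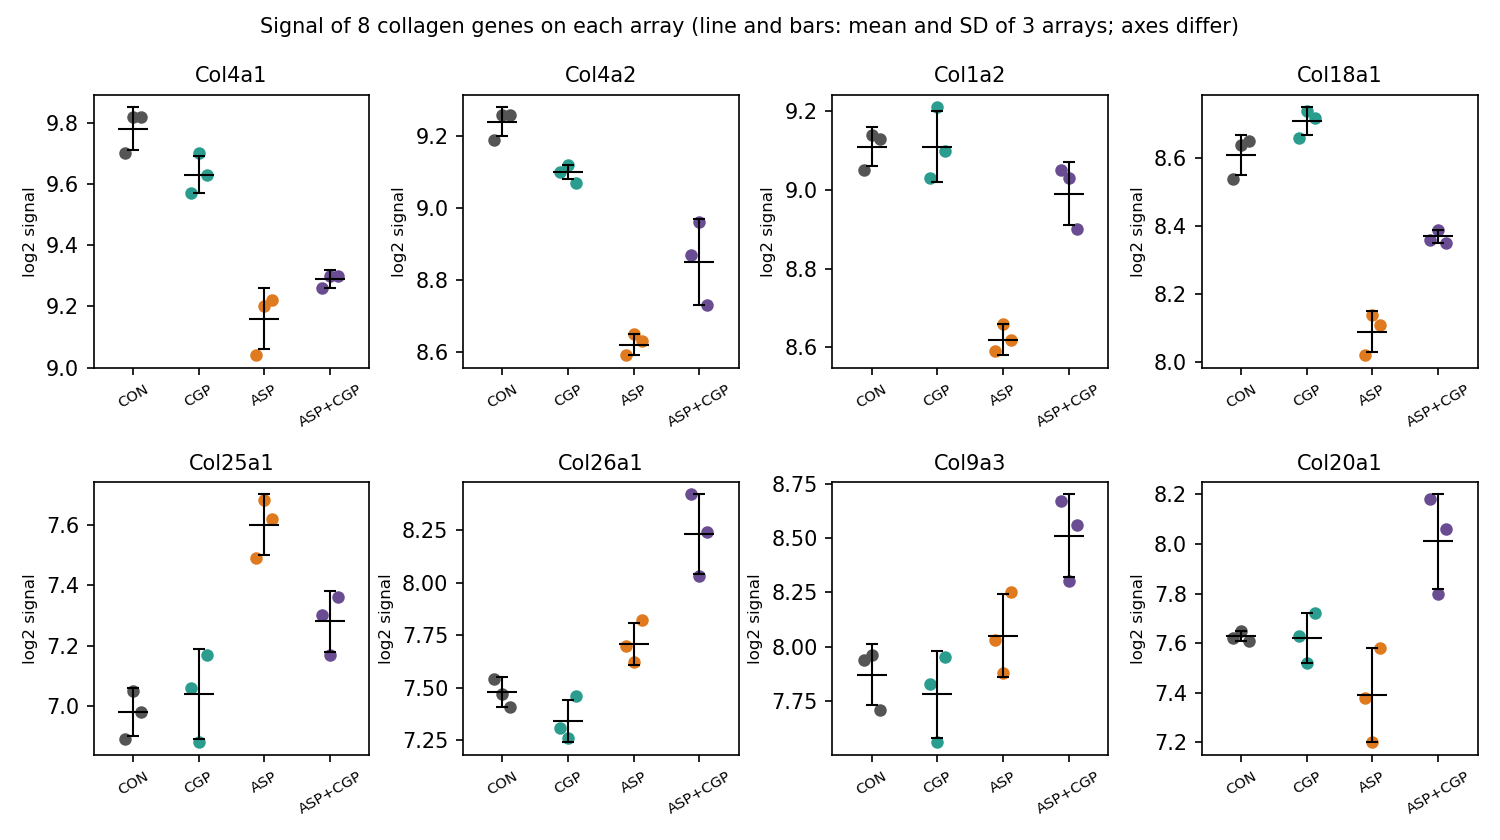
Log2 signal of 8 collagen genes on each of the 12 arrays, by pool, with the mean and SD of the 3 arrays; the vertical axes differ between genes. Col4a1, Col4a2, Col1a2 and Col18a1 are lowest in ASP, Col25a1 is highest in ASP, and Col26a1, Col9a3 and Col20a1 are highest in ASP+CGP.

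Under CGP 39551 alone the collagens stayed near CON. Their differences ran from -0.16 to 0.19, none of the 44 was called by limma, and the lowest adjusted p was 0.370. Across the genome 1.62% of genes were called higher and 0.0189% lower. At an unadjusted p under 0.05, Col12a1 was higher and Col4a1, Col4a2 and Col5a3 were lower, which is 4 of 44, against 9.75% of all genes. No tool other than limma was run. In this comparison 37 of 44 collagens had arrays that overlapped with CON, while 1 was above and 6 were below on every array, against 10.1% and 6.35% of all genes.

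With aspartame and CGP 39551 together 5 collagens rose, among them chains of types II, IX and XI, which are best known from cartilage. The largest rise was in Col26a1, a short secreted collagen first described in testis and ovary. Its log2 signal was 7.54, 7.47 and 7.41 in CON, 7.31, 7.26 and 7.46 in CGP, 7.70, 7.62 and 7.82 in ASP, and 8.42, 8.03 and 8.24 in ASP+CGP. The ASP+CGP arrays were above all others and the ASP arrays were next. The rise over CON was 0.75 ± 0.09, or 1.68-fold (adjusted p = 1.72e-05, limma).

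Type IX collagen, which coats type II fibrils, moved with all its chains in 1 direction. Col9a3 had 7.94, 7.96 and 7.71 in CON, 7.83, 7.56 and 7.95 in CGP, 8.03, 7.88 and 8.25 in ASP, and 8.67, 8.30 and 8.56 in ASP+CGP, a rise of 0.64 ± 0.12 or 1.55-fold (adjusted p = 0.000369, limma). Col9a1 had 6.90, 6.79 and 6.67 in CON, 6.64, 6.73 and 6.83 in CGP, 6.94, 6.53 and 7.04 in ASP, and 7.38, 7.22 and 7.39 in ASP+CGP, a rise of 0.54 ± 0.11 or 1.46-fold (adjusted p = 0.000628, limma). Neither gene had an ASP+CGP array at or below a CON array. Col9a2 was at 0.40 ± 0.10 and was not called.

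The fibril chains Col2a1 of type II and Col11a2 of type XI rose as well, and Col11a1, the other type XI chain, was at 0.20 ± 0.06 and was not called. Col2a1 had 7.48, 7.47 and 7.5 in CON, 7.53, 7.15 and 7.62 in CGP, 7.61, 7.53 and 7.73 in ASP, and 8.07, 7.83 and 8.01 in ASP+CGP. Col11a2 had 7.47, 7.39 and 7.28 in CON, 7.28, 7.25 and 7.5 in CGP, 7.5, 7.44 and 7.57 in ASP, and 8.01, 7.68 and 7.96 in ASP+CGP. The rises over CON were 1.4-fold for Col2a1 (0.49 ± 0.10, adjusted p = 0.000854, limma) and 1.42-fold for Col11a2 (0.50 ± 0.09, adjusted p = 0.000251, limma). For both, the lowest ASP+CGP array was replicate 2, and it was still above every CON, CGP and ASP array. These folds are close to the fold required: Col2a1 was not called without CON replicate 2, ASP+CGP replicate 1 or ASP+CGP replicate 3, and Col11a2 not without CON replicate 3, ASP+CGP replicate 1 or ASP+CGP replicate 3. Col4a1 lost its call in this comparison without CON replicate 2, CON replicate 3 or ASP+CGP replicate 1, and Col9a1 without CON replicate 3.

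Below the fold required, small positive differences were common. By adjusted p alone, 29 of 44 collagens were higher and 4 lower in ASP+CGP than in CON, where 22.3% of all genes were higher and 50.4% lower. The 29 comprised 7 of 11 fibrillar, 4 of 6 basement membrane and 18 of 27 other collagens. The median difference was 0.29 for collagens and -0.17 for all tested genes, with 0.26 for fibrillar, 0.26 for basement membrane and 0.30 for other collagens. In 28 of 44 genes every ASP+CGP array was above every CON array, which held for 22.8% of all genes, and in 7 every array was below, which held for 52.5%. In ASP, by the same reading, 2 collagens were higher and 14 lower by adjusted p alone, against 17.6% and 37.7% of all genes.

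**Figure D3:**
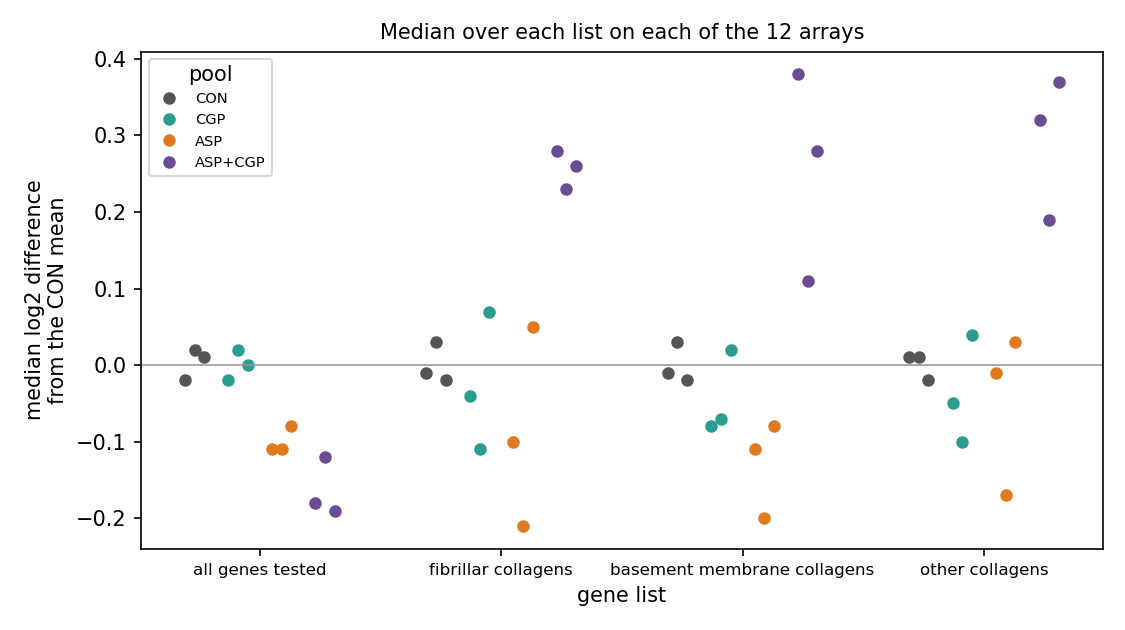
Median log2 difference from the CON mean over all tested genes and over the 3 collagen classes, 1 point for each of the 12 arrays. In ASP+CGP the collagen medians lie between 0.11 and 0.38 on every array while the medians of all genes lie between -0.19 and -0.12.

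Differences varied with the brightness of the probe set. In ASP+CGP all genes with a CON signal under 8 had a median difference of 0.15 and those of 8 and over one of -0.30. The 30 collagens under 8 were at 0.33 and the 14 of 8 and over at -0.06. In the narrower range of 7 to 8, the 18 collagens were at 0.32 and all 3286 genes at -0.06. From 6 to 7 the values were closer, at 0.34 for the 12 collagens and 0.25 for all 3173 genes. Collagens were at 0.05 and all genes at -0.26 from 8 to 9, and at -0.19 and -0.34 from 9 to 10. In ASP, the 30 dimmer collagens were at 0.01 (all genes -0.02), and the 14 brighter ones at -0.38 (all genes -0.18), with all 4 that fell among the brighter. The collagens that fell in ASP and those that rose in ASP+CGP thus came from different ranges of signal, and the part of the narrower spread of signal on the ASP+CGP arrays was not tested.

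**Figure D4:**
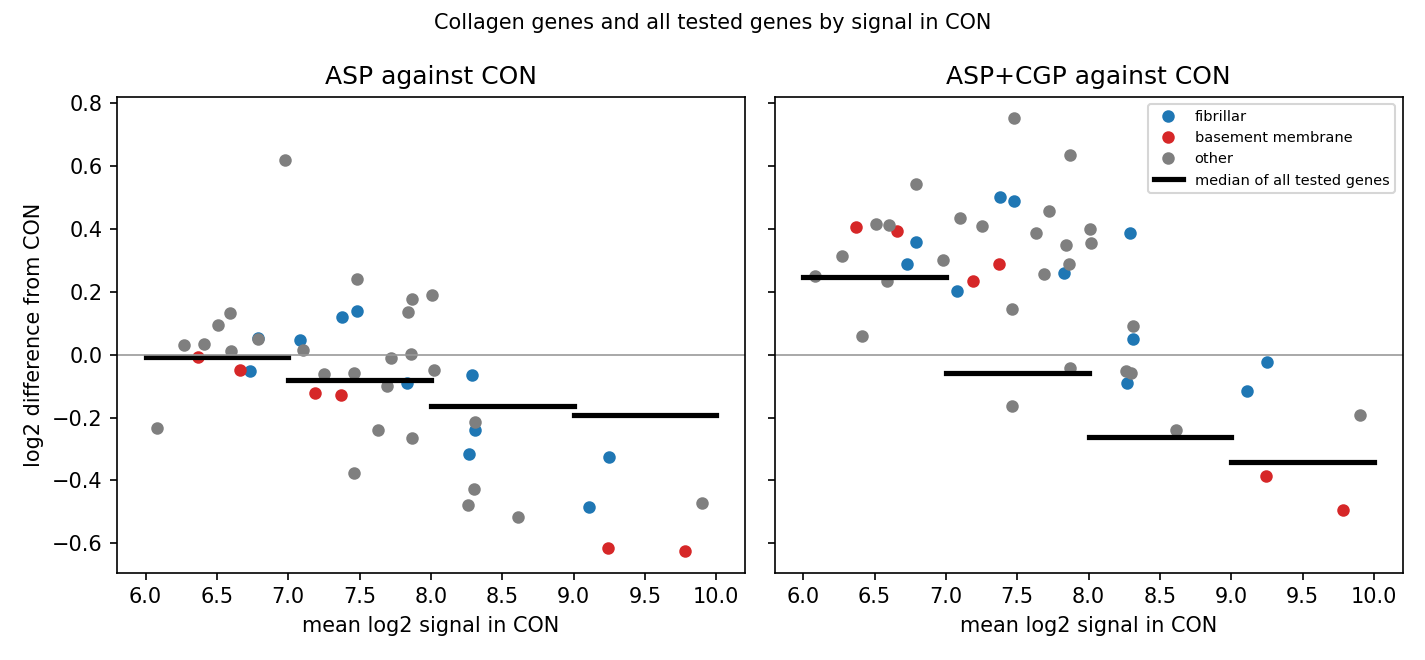
Log2 difference from CON of the 44 collagens, coloured by class, against their mean log2 signal in CON, for ASP and ASP+CGP; black bars are the median of all tested genes in each range of 1 log2 unit. In ASP the 4 genes called lower have CON signals above 8, and in ASP+CGP the collagens between 7 and 8 lie mostly above the bar of all genes. Between 6 and 7 the collagen median in ASP+CGP is 0.34, beside a bar at 0.25.

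Another normalization bears on these calls. Cyclic loess moved the median of all genes by 0.11 in ASP and by 0.16 in ASP+CGP. After it Col25a1 alone was called in ASP, at 0.70, with 12.3% of all genes called higher and 3.04% lower, and the called genes that were higher went from 54.7% to 80.1%. Col4a1 was then at -0.45, Col4a2 at -0.44, Col18a1 at -0.36 and Col1a2 at -0.31, each still with an adjusted p below 0.05 by limma but short of the fold, and the collagen median in ASP went from -0.05 to 0.04. In ASP+CGP, 8 collagens were called higher and none lower, with 4.29% of all genes called higher and 3.16% lower, and the called genes that were higher went from 42.3% to 57.6%. Col26a1 (0.81), Col9a3 (0.78), Col2a1 and Col11a2 were among the 8, Col7a1, Col9a2, Col13a1 and Col27a1 joined them, and Col9a1 and Col4a1 were no longer called. The collagen median was 0.26, with 39 of 44 positive, and that of all genes -0.01. The median rise of collagens in ASP+CGP kept its sign under this scaling, and the median fall in ASP did not.

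Between the pools that both received aspartame, nearly every collagen was higher with CGP 39551. The difference of ASP+CGP from ASP was positive in 43 of 44 genes, Col25a1 being the exception, where 7683 of 15900 genes in all were positive. The median was 0.34 for collagens and -0.02 for all genes, and 0.34, 0.39 and 0.32 for the fibrillar, basement membrane and other classes. In 39 of 44 genes every ASP+CGP array was above every ASP array, among them 11 of 11 fibrillar and 6 of 6 basement membrane genes, against 30.7% of all genes. By adjusted p alone 39 were higher and 1 lower, where 30% of all genes were higher and 33.1% lower. Most differences were small, and 4 collagens passed the fold, with 6.55% of all genes called higher and 13.3% lower.

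The called genes were Col20a1, Col26a1, Col9a1 and Col10a1. Col20a1, a relative of the fibril-surface collagens, had 7.62, 7.65 and 7.61 in CON, 7.63, 7.52 and 7.72 in CGP, 7.38, 7.20 and 7.58 in ASP, and 8.18, 7.80 and 8.06 in ASP+CGP. It was above all other arrays in ASP+CGP, 1.54-fold over ASP (0.62 ± 0.10, adjusted p = 0.000106, limma). Col26a1 was 1.43-fold and Col9a1 1.41-fold over ASP. Col10a1, the collagen of hypertrophic cartilage, had 6.18, 6.06 and 5.99 in CON, 6.03, 6.02 and 6.17 in CGP, 5.72, 5.78 and 6.03 in ASP, and 6.35, 6.16 and 6.48 in ASP+CGP. Its ASP mean was under the floor of 6, so the difference is given as at least 1.25-fold. Without ASP replicate 1, Col10a1 was not called. Without ASP replicate 2 or without ASP+CGP replicate 1, Col20a1 alone was called. Without ASP+CGP replicate 3 Col20a1 and Col26a1 were called, and without ASP replicate 3 or ASP+CGP replicate 2 there were 9 and 10 genes. After cyclic loess 3 collagens were called higher (Col1a2, Col20a1 and Col27a1), with 3.09% of all genes called higher and 13% lower, and the called genes that were higher went from 32.9% to 19.2%.

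The chains that fell in ASP were only partly higher in ASP+CGP. Col1a2 was 0.37 ± 0.06 and Col18a1 0.28 ± 0.06 above ASP. Col4a2 was 0.23 ± 0.06 above ASP, and Col4a1 0.13 ± 0.06, with an adjusted p of 0.0844 by limma. Type I thus lay at or near CON in ASP+CGP, while Col4a1 and Col4a2 lay between ASP and CON or close to ASP. None of these 4 differences reached the fold of 1.4.

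The interaction asks whether the pools with and without CGP 39551 differed by the same amount with and without aspartame. It is the difference of ASP+CGP from ASP minus that of CGP from CON. It was called positive for 10 of 44 collagens and negative for none, with 9.02% of all genes called positive and 15.5% negative. The 10 were Col27a1 of the fibrillar class and Col6a5, Col7a1, Col9a1, Col9a3, Col10a1, Col13a1, Col20a1, Col22a1 and Col26a1 of the others, with values from 0.49 to 0.65. By adjusted p alone it was positive for 34 and negative for 1, where 21.9% of all genes were positive and 29.5% negative. The median was 0.37 for collagens and -0.03 for all genes. After cyclic loess 9 were called positive and 1 negative, with 4.61% of all genes called positive and 15.3% negative. Col10a1, Col22a1, Col6a5 and Col9a1 were lost, Col1a2, Col4a2 and Col6a1 were gained, and Col25a1 was called negative at -0.53. Without ASP replicate 2 or ASP+CGP replicate 1, 6 collagens were called.

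Of the machinery that makes and handles collagen, several genes were lower in the ASP pool and a few higher, where 17.9% of all genes were called in either direction. Among 16 genes of collagen folding and modification 3 fell and 1 rose: P3h2, a prolyl 3-hydroxylase, to 0.611 times CON, Crtap, a part of the prolyl 3-hydroxylation complex of P3h1, to 0.675 times, Plod2, a lysyl hydroxylase, to 0.705 times, and P4ha3, a prolyl 4-hydroxylase subunit, rose 1.62-fold. Among 11 genes of propeptide cleavage and cross-linking the lysyl oxidases Lox and Loxl1 fell, each to 0.685 times CON, and Pcolce2, an enhancer of procollagen cleavage, rose 1.84-fold. Among 13 small leucine-rich proteoglycans and fibril partners Tnxb, Postn and Thbs1 fell and none rose.

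Receptors were called lower only and turnover genes in both directions, where 8.13% of all genes were called lower and 9.81% higher. Of 9 collagen receptors Itga1 fell to 0.579 times CON, and Ddr2 and Itga2 fell too. Of 10 collagenases, gelatinases and inhibitors, Mmp13, Timp1 and Mmp2 fell, while Timp4 rose 2.58-fold and Mmp16 1.42-fold. Of 13 genes of the TGF-beta pathway, a main driver of collagen transcription, Tgfb1, Tgfbr1, Tgfbr2 and Tgfbr3 fell and none rose. After cyclic loess these lists had fewer falls, where 3.04% of all genes were called lower. There was 1 in folding and modification, 0 in cross-linking, 0 among fibril partners and 2 among basement membrane partners. Receptors had 1, proteases and inhibitors 1, and the TGF-beta pathway 0. Every list median was still below 0.

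In ASP+CGP few of these genes were called against CON, where 14.4% of all genes were called. P3h2 and P4hb fell in folding and modification, Fn1 (to 0.513 times CON) and Thbs1 among fibril partners, and Itga1 among receptors, with none called in the cleavage, protease and TGF-beta lists. After cyclic loess Fn1 and Itga1 were the ones still called. No gene of these lists was called higher against CON here, and compared to ASP, P4ha3 was at 0.636 times, Pcolce2 at 0.545 times, Timp4 at 0.305 times and Mmp16 at 0.673 times. Fn1 (0.583 times) and Timp2 (0.651 times) were also lower than in ASP, and Ltbp2, a matrix protein that binds fibrillin, was 1.44-fold higher. In CGP, Fn1 rose 1.41-fold and no other gene of these 7 lists was called.

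A few markers of the cells that make stroma were called, again beside 17.9% of all genes in ASP. Of 14 fibroblast and capsule genes, Tcf21 and Dpep1 fell in ASP, to 0.638 and 0.647 times CON, and none was called in ASP+CGP. The mean log2 signal of that list was 8.51 to 8.61 in CON, 8.68 to 8.72 in CGP, 8.26 to 8.35 in ASP, and 8.51 to 8.54 in ASP+CGP. Of 10 pericyte and smooth muscle genes Tagln, Pdgfrb and Des fell in ASP and Pdgfrb in ASP+CGP. After cyclic loess Tcf21 was the only one of these stroma and pericyte genes still called in ASP, and none was called in ASP+CGP. Of 10 leptomeningeal genes 4 rose and 1 fell in ASP. Their part in the collagen values was not tested.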

How the data were processed

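Total RNA of both adrenal glands was pooled by group, and each pool was hybridised to 3 Affymetrix Mouse Gene 1.0 ST arrays. The deposited values are log2 signals that the authors made with RMA in Partek (background correction, quantile normalization and median polish summary); the methods describe a filter on signals below 6. Array data carry no read depth, and the number of arrays limits the precision. Probe sets were named through GEO's platform annotation: of 26533, 17710 had 1 gene symbol, 1077 several and 7746 none, and only those with 1 symbol were used.

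The probe set of strongest average signal stood for each gene (16244 genes), and 344 genes with a mean below 6 in every group were left out. The remaining 15900 were fitted in limma 3.58.1 (R 4.3.3) with 1 mean for each group over all 12 arrays, and 5 contrasts were adjusted by Benjamini-Hochberg over all genes tested. Calls required both an adjusted p below 0.05 and a fold of at least 1.4. Every collagen may be named; per-array values are given for up to 8 called genes in each direction and comparison and for Col1a1, Col1a2, Col3a1, Col4a1, Col4a2, Col6a1, Col6a2 and Col6a3, and a few more were picked after their values were seen (Col4a5 and Col4a6). Of the pathway lists up to 4 called genes with the largest differences are given with values. The members and all lists were chosen with earlier results of these data known. The script was tested on simulated data. Alternatives were another filter, centring, cyclic loess, removal of the trend with signal level, other moderation, array weights, a replicate block, other folds, the mean of probe sets, and leaving out each array. Promoter sequences are from RefSeq (GRCm38.p6), read with Python 3.11.15 and matched by symbol; 35 of 44 collagen genes were in that table. The array values carry no genome build.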

Additional observations from a re-analysis of the deposited data

Results flagged for a closer look

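For 10 collagens the pools with and without CGP 39551 did not differ by the same amount with and without aspartame, by the interaction term in limma. Of all tested genes 9.02% were called positive and 15.5% negative. Each value is on the log2 scale with its standard error over 3 arrays in each of 4 pools, so it compares pools and not mice. The parts of the neural transcripts in the ASP pool and of the narrower spread of signal on the ASP+CGP arrays were not tested. The fibrillar Col27a1 had 0.56 ± 0.10 (adjusted p = 0.000364, limma). Among the fibril-surface collagens Col9a1 had 0.54 ± 0.16, Col9a3 0.55 ± 0.17, Col20a1 0.63 ± 0.14 and Col22a1, known from tissue junctions of muscle and tendon, 0.56 ± 0.10. Col7a1, the anchoring fibril of skin, had 0.54 ± 0.12, Col13a1, a membrane collagen of the nerve-muscle synapse, 0.54 ± 0.12, and Col6a5 0.55 ± 0.14. Col26a1 had the largest value, 0.65 ± 0.13 (adjusted p = 0.000870, limma), and Col10a1 the smallest, 0.49 ± 0.13. In all 10 genes the ASP+CGP mean was the highest of the 4 pools. After cyclic loess Col10a1, Col22a1, Col6a5 and Col9a1 were no longer called, while Col1a2, Col4a2 and Col6a1 were called positive and Col25a1 negative (-0.53). The second probe set of Col6a5 gave -0.03 in ASP+CGP against CON. With the mean of the probe sets of a gene, the interaction of Col6a5 was no longer called, which left 9 collagens.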

How the results depend on the processing

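In CGP against CON 0 collagens were called under every alternative run. In ASP against CON the 5 calls became 1 with cyclic loess or with the trend with signal level removed, 16 with no fold minimum and 0 at a fold of at least 1.8, and ranged from 3 to 6 when 1 array was left out, being 3 without ASP replicate 1. In ASP+CGP against CON the 6 calls became 33 with no fold minimum and 0 at 1.8, and ranged from 3 to 11, being 3 without CON replicate 3 or ASP+CGP replicate 1 and 11 without ASP+CGP replicate 2. In ASP+CGP against ASP the 4 calls became 9 with centred arrays, 7 with array weights, 40 with no fold minimum and 0 at 1.8, and ranged from 1 to 10. The interaction's 10 calls became 35 with no fold minimum and 0 at 1.8, and ranged from 6 to 15. For these losses and gains the cause was not tested, beyond the fold that the last settings change. Of all genes called, the share that was higher moved from 42.3% to 70.1% in ASP+CGP against CON, from 32.9% to 43.3% in ASP+CGP against ASP and from 36.7% to 47.2% in the interaction with centred arrays, and to 54.9%, 19.6% and 22.6% with the trend removed, where ASP against CON had 80.0%. No value changed sign among the called results. Array numbers were not taken to pair the samples: deviations of the 18 same-numbered pairs correlated at -0.15 to 0.38, with 8 over 0.1, against 9 of 36 other pairs (highest 0.28). Array 2 of CGP, ASP and ASP+CGP correlated at 0.31 to 0.38 among themselves and at -0.01 to 0.07 with array 2 of CON. A replicate block gave 0 calls in CGP, 5 in ASP and 6 in ASP+CGP against CON, 4 in ASP+CGP against ASP and 10 in the interaction, as without it. Signal near the floor limits what dim collagens such as Col10a1 can show, and pools without mouse replicates limit every comparison.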

Other observations

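The 3 arrays of a pool did not rank collagens evenly. Array 2 gave the lowest signal of its pool for 25 of 44 collagens in CGP, 30 in ASP and 27 in ASP+CGP, but for 9 in CON. For all tested genes it was the lowest in 24.0%, 29.7%, 27.6% and 21.1% of cases. Array 3 gave the highest collagen signal for 30 of 44 in CGP and 31 in ASP, and array 1 for 24 in ASP+CGP. For the highest signals the share over all tested genes was not taken, so these counts are not set against it.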
